A study of Mus musculus with 4 samples.

Results

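Genes of the pre-B cell stage were followed over 4 sorted mouse blood cell populations, each measured on 1 Affymetrix array. The set holds 10 genes: Vpreb1, Vpreb3, Igll1, Cd79a, Cd79b, Ebf1, Pax5, Pou2af1, Irf4 and Blk. Every probe set assigned to exactly 1 gene symbol from this set was taken, which gave 17 probe sets. All 10 genes were measured, out of 18193 genes on the array. A further probe set assigned to a gene of the set together with another gene was left out. The genes were chosen with their signals on these arrays known, so levels and counts are a description of these 4 libraries, and no test is given.

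Granulocytes came from bone marrow and were gated as granular cells that stained strongly for Gr-1, to a purity of 99.4%. The other populations were enriched for c-Kit with magnetic beads and gated against B220, Ter119, the T-cell antigens CD3, CD4 and CD8 and the myeloid antigens Gr-1 and CD11b. Haematopoietic progenitor cells (HPC) were the Sca-1 negative part of this c-Kit positive, lineage negative gate, long-term repopulating stem cells (LT-HSC) the Sca-1 positive CD34 negative part, and short-term repopulating stem cells (ST-HSC) the Sca-1 positive CD34 positive part. The sources used here name no treatment, transgene, strain, sex or age. RNA of 50 to 200 cells per population passed through 2 rounds of linear amplification, and packets of 50 or 100 cells had been handled in empty egg coats. B220, a surface antigen of B-lineage cells, was thus an exclusion antigen for HPC, LT-HSC and ST-HSC but not for granulocytes.

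A pre-B cell has joined the segments of its immunoglobulin heavy chain gene but not yet those of a light chain. It pairs the heavy chain with a surrogate light chain made of VpreB and lambda 5, and signals through Igα and Igβ. This receptor tells the cell to divide and to go on to light chain rearrangement. The factors EBF1 and PAX5 set and hold B-lineage identity, and stem cells are known to carry little of this programme.

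Signals are deposited probe set intensities on a linear scale. A signal below 120.1, the median over the pooled arrays, was treated as unmeasured and is called under the floor. A fold against such a signal is computed against the floor and given as at least that fold. The SD of the log2 difference between 2 probe sets of the same gene was 0.88 for LT-HSC against ST-HSC, 0.93 for HPC against ST-HSC and 0.86 for HPC against LT-HSC. It was 1.26 to 1.29 for pairs with granulocytes. It was computed from the 2 brightest probe sets of a gene among those above the floor on both arrays, so signals under the floor did not enter it. For LT-HSC against ST-HSC the 2 probe sets had the same sign in 63.4% of genes. This SD is the only measure of error here, and it covers neither sorting nor amplification. With 1 array per population there is no replicate, and that number sets the precision.

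The arrays were first read for genes that mark their gates. Cd34 had a signal of 2384 in LT-HSC, 5190 in HPC, 9778 in ST-HSC and 17.2 in granulocytes, so the CD34 negative gate had less of it than the CD34 positive one but was well above the floor. Kit, which encodes the c-Kit antigen, had 5416 in LT-HSC, 3011 in HPC, 3144 in ST-HSC and 583 in granulocytes. Of 8 stem and progenitor markers, 8 were above the floor in LT-HSC, 8 in ST-HSC, 7 in HPC and 4 in granulocytes. Among them, Procr and Hlf were under the floor in granulocytes and above it on the other arrays. Mpo, of the same list, had 1149 in LT-HSC, 32023 in HPC, 18718 in ST-HSC and 246 in granulocytes. The LT-HSC array also stood apart from HPC and ST-HSC in neutrophil markers. Of 8 neutrophil markers, 5 were above the floor in LT-HSC, 1 in HPC, 1 in ST-HSC and all 8 in granulocytes. Their summed signal was 19358, 433, 484 and 321429 in that order. Ngp, a granule protein, reached 5299 and S100a8, a calcium-binding protein, 6783 in LT-HSC, while Mmp8, Itgam and Cxcr2 were under the floor there.

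The pre-B cell genes were bright in LT-HSC, less so in HPC, and mostly under the floor in ST-HSC. The signal summed over the 10 genes was 22848 in LT-HSC, 10241 in HPC, 835 in ST-HSC and 7868 in granulocytes. All 10 genes were above the floor in LT-HSC, 9 in HPC, 6 in granulocytes and 2 in ST-HSC. Each of the 10 genes had its lowest signal in ST-HSC, which 18.2% of all genes did while above the floor on another array. LT-HSC gave the highest signal for 7 of the 10, against 15.3% of all genes. In bulk samples fewer cells of a type and less RNA per cell cannot be told apart, so these levels do not show how many cells of a population carried the transcripts.

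**Figure D1:**
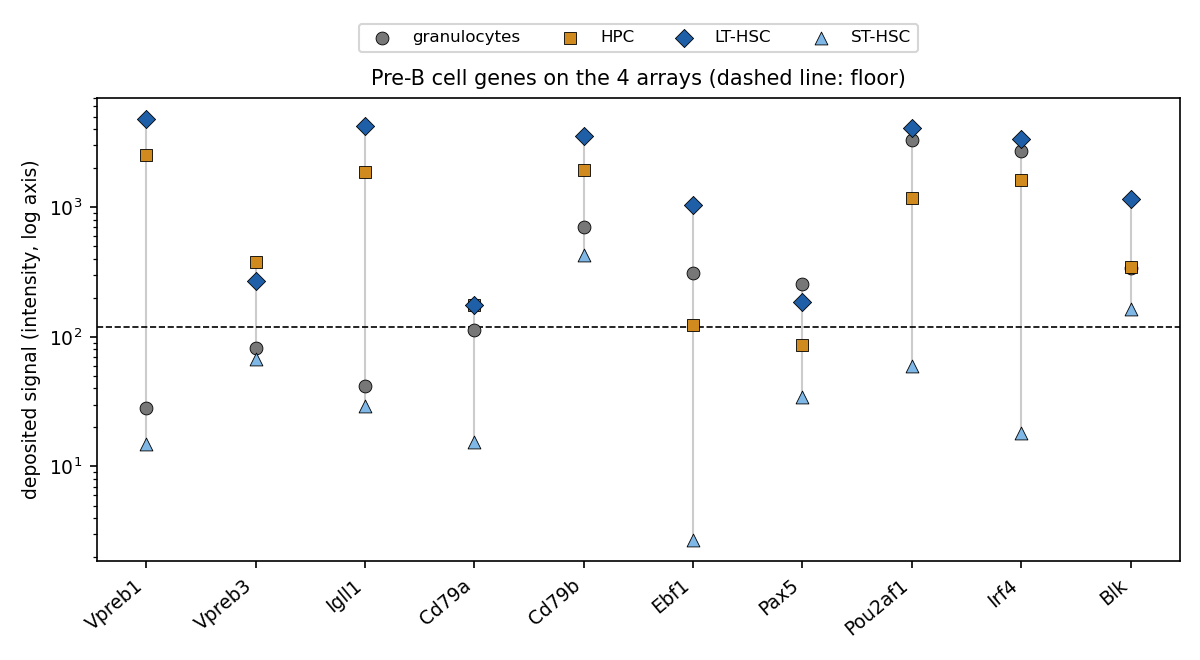
Deposited signal (log axis) of the 10 pre-B cell genes on the 4 arrays, 1 point per array, each gene shown by its brightest probe set; the dashed line is the floor of 120.1. The ST-HSC points are the lowest for every gene, and the LT-HSC points lead for 7 genes, from Ebf1 at 1031 to Vpreb1 at 4815.

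The surrogate light chain genes ranged over at least 5.33 log2 units for Vpreb1 and at least 5.14 for Igll1, the latter with 1 of its 2 probe sets. Vpreb1, the variable-like part of the surrogate light chain, had a signal of 4815 in LT-HSC, 2532 in HPC, 15.0 in ST-HSC and 28.4 in granulocytes. Igll1, which encodes lambda 5, the constant-like part, had 4234, 1862, 29.1 and 41.6 on the same arrays with its brightest probe set. With these probe sets both genes were above the floor in LT-HSC and HPC alone.

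Vpreb1 was at least 40.1-fold higher in LT-HSC than in ST-HSC and at least 21.1-fold higher in HPC than in ST-HSC. Igll1 was at least 35.3-fold and at least 15.5-fold higher in the same pairs. LT-HSC lay 1.90-fold above HPC for Vpreb1 and 2.27-fold for Igll1. The former is a log2 difference of 0.93 and the latter of 1.18, beside an SD of 0.86 between probe sets. In LT-HSC the Vpreb1 signal stood at percentile 96.8 of all probe sets, and in ST-HSC at percentile 14.

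Vpreb1 and Igll1 are neighbours on mouse chromosome 16, with no other annotated gene starting between them in RefSeq (assembly GRCm38.p6). Their promoter windows are shown because each of these genes was the nearest to the other in profile, with the brighter Igll1 probe set. Each window runs from 250 bases before the annotated start to 50 after it, in the direction of the gene. Windows were held for 8 of the 10 genes, 9 windows in all. Cd79b and Blk had none. Capitals mark matches on either strand to CAGGTG, an E-box of the kind bound by E2A, and to CCCNNGGG, the core of the EBF1 motif. No match of the 2 motifs overlaps another.
Vpreb1 (GRCm38.p6, chr16:16869206-16869505, minus strand): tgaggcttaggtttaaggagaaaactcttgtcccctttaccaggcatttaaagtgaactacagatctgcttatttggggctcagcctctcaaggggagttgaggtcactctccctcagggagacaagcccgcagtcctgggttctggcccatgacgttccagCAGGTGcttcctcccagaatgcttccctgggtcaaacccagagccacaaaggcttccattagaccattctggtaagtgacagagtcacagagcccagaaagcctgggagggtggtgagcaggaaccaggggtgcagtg
Igll1 (GRCm38.p6, chr16:16863936-16864235, minus strand): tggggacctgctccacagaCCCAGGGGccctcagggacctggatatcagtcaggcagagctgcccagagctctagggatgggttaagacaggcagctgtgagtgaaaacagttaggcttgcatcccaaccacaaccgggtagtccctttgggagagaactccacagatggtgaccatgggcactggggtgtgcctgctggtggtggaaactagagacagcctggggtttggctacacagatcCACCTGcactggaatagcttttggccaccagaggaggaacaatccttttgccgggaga

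The Vpreb1 window held 1 CAGGTG match, which begins 88 bases before the start. The Igll1 window held it on the opposite strand, 8 bases before the start, and a CCCNNGGG match 231 bases before it. Of all 32851 windows, 20.2% held CAGGTG and 13.7% held CCCNNGGG. CAGGTG was in 3 of the 9 windows of the set, that of Cd79a among them, and CCCNNGGG in 1. TGGGAA, a core letter string of Ikaros sites, was in 1 of the 9, a window of Ebf1, against 25.6% of all windows. The windows of Pax5, Pou2af1 and Irf4 held none of the 4 motifs searched. These matches describe letters and not bound sites.

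Vpreb3, whose product associates with newly made immunoglobulin chains in precursor B cells, stayed closer to the floor. Its signal was 269.5 in LT-HSC, 376 in HPC, 67.7 in ST-HSC and 81.3 in granulocytes. It was the only gene of the set highest in HPC by more than a rounding difference, 1.39-fold above LT-HSC, a log2 difference of 0.48 that is under the SD between probe sets. HPC was at least 3.13-fold and LT-HSC at least 2.24-fold above ST-HSC. The Vpreb3 window is shown because it alone of the 9 held the octamer ATTTGCAT, the letter string at which the product of Pou2af1 joins Oct factors. It begins 45 bases before the start and stands in capitals, and 1.74% of all windows held it.
Vpreb3 (GRCm38.p6, chr10:75948050-75948349, plus strand): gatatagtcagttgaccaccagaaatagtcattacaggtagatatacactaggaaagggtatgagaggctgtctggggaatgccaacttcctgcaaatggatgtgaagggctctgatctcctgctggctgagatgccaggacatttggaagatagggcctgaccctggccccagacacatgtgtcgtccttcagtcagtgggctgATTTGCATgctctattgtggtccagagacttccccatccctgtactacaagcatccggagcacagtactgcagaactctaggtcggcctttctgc

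Of the signalling chains of the receptor, Cd79b was above the floor throughout and differed between the arrays, while Cd79a stayed near the floor. Cd79b, which encodes Igβ, had 3562 in LT-HSC, 1942 in HPC, 428 in ST-HSC and 703 in granulocytes. It was 8.32-fold higher in LT-HSC than in ST-HSC, 4.54-fold higher in HPC than in ST-HSC and 1.83-fold higher in LT-HSC than in HPC. The last of these, a log2 difference of 0.87, was about the size of the SD between probe sets. Cd79a, which encodes the partner chain Igα, had 176.5 in LT-HSC, 177 in HPC, 15.5 in ST-HSC and 114 in granulocytes. Its HPC and LT-HSC signals were nearly equal, and each was at least 1.47-fold above ST-HSC. Blk, a Src-family kinase of B cells that acts next to these chains, had 1151 in LT-HSC, 345 in HPC, 164 in ST-HSC and 339.6 in granulocytes. LT-HSC was 7.0-fold above ST-HSC and 3.34-fold above HPC for Blk, while granulocytes and HPC were 1.01-fold apart.

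The 2 founding transcription factors of the B lineage were dim except for Ebf1 in LT-HSC. Ebf1, which opens B-lineage genes, had 1031 in LT-HSC, 123 in HPC, 2.7 in ST-HSC and 312 in granulocytes with its brightest probe set. LT-HSC was at least 8.58-fold above ST-HSC and 8.37-fold above HPC with this probe set. With another, 1439789_at, HPC had 302, at least 2.51-fold above ST-HSC, and LT-HSC was 2.54-fold above HPC, so the HPC level of Ebf1 differed between probe sets. Pax5, which holds B-lineage commitment, had 187 in LT-HSC, 86.2 in HPC, 34.3 in ST-HSC and 255 in granulocytes. It was the only gene of the set highest in granulocytes, by 1.37-fold over LT-HSC, well under the spread between probe sets.

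Pou2af1 and Irf4 shared a profile of their own. Pou2af1, the B-cell coactivator of Oct factors, had 4086 in LT-HSC, 1178 in HPC, 59.9 in ST-HSC and 3276 in granulocytes. Irf4, a factor that ends pre-B proliferation and later serves plasma cells, had 3337, 1620, 18.0 and 2718 with its brightest probe set. Both were as bright in granulocytes as in LT-HSC within the spread between probe sets, at 1.25-fold and 1.23-fold, unlike Vpreb1 and the brighter Igll1 probe set, which were under the floor in granulocytes. LT-HSC was at least 34.0-fold above ST-HSC for Pou2af1 and at least 27.8-fold for Irf4, and HPC at least 9.81-fold and at least 13.5-fold.

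Probe sets of 1 gene did not always agree. Of the 10 genes, 6 had 1 probe set and 4 had more. Ebf1 had 5, and in 4 of them LT-HSC was highest, at 1031, 523, 767 and 355, with every ST-HSC signal under the floor. The remaining one, 1457441_at, read 12.7 in LT-HSC and reached 169 in HPC. The second Igll1 probe set, 1420177_at, had 181.5 in LT-HSC, 22.3 in HPC, 88.5 in ST-HSC and 237 in granulocytes. It did not show the HPC signal of the brighter set, 1420176_x_at, whose suffix marks probes that may bind other transcripts. Without probe sets so marked, the log2 difference of Igll1 between LT-HSC and ST-HSC was 0.60 in place of 5.14.

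The second Irf4 probe set, 1421174_at, was flat, from 118 in ST-HSC to 216 in granulocytes. Its log2 difference between LT-HSC and ST-HSC was 0.72 against 4.80 for 1421173_at, the same in sign and far smaller. The second Pax5 probe set, 1421765_at, lay under the floor on all arrays, the only one of the 17 to do so. Over the 17 probe sets ST-HSC had the lowest signal in 13 and LT-HSC the highest in 10. Above the floor were 15 in LT-HSC, 12 in HPC, 2 in ST-HSC and 8 in granulocytes.

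**Figure D2:**
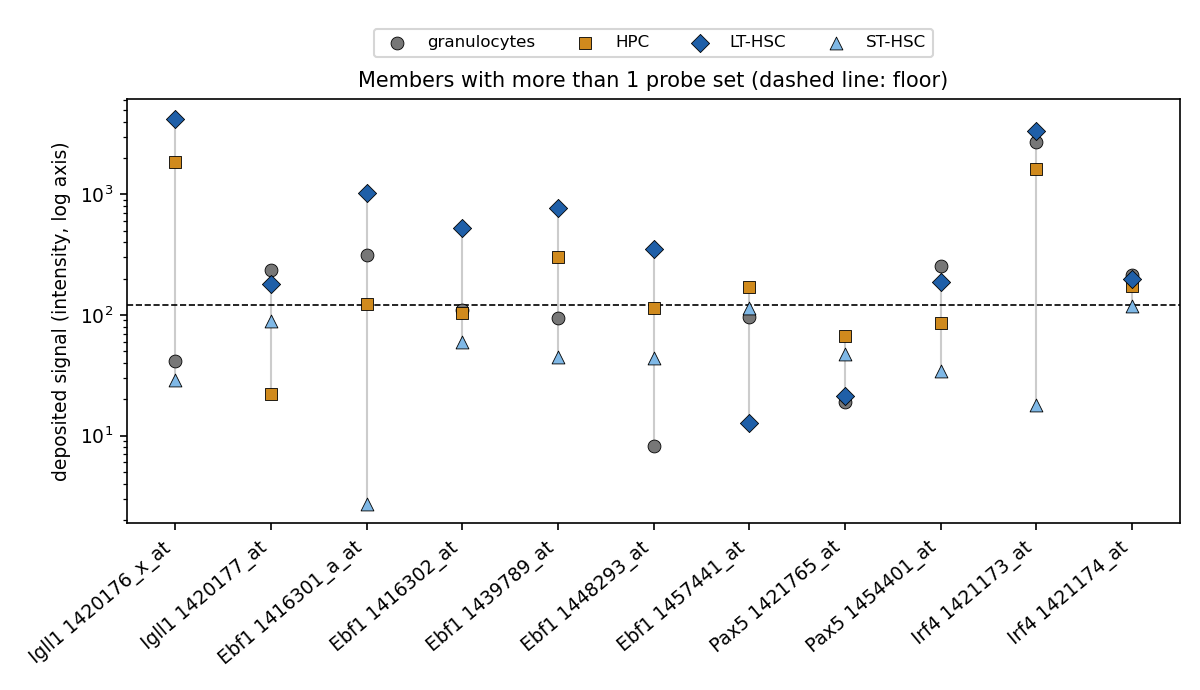
Deposited signal (log axis) of every probe set of Igll1, Ebf1, Pax5 and Irf4, 1 point per array; the dashed line is the floor of 120.1. For Ebf1, 4 of 5 probe sets place LT-HSC on top, whereas the second sets of Igll1 and Irf4 stay at or below 237 on every array.

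LT-HSC and ST-HSC were compared as the 2 stem cell gates that differ in CD34. At least 2-fold higher in LT-HSC were 8 of the 10 genes, where 7.28% of all 18193 genes were. None was at least 2-fold lower, against 5.41% of all genes, but a gene under the floor in ST-HSC could not be called lower. Only 2 of the 10 were above it there. At least 4-fold higher were 7 of the 10, against 1.29% of all genes. Just inside the 2-fold limit lay Vpreb3 with a log2 difference of at least 1.17, and just outside lay Pax5 with at least 0.64 and Cd79a with at least 0.56. ST-HSC was under the floor for all 3, so these are lower bounds: with the floor at the 25th percentile Pax5 had 2.45 and Cd79a 2.40, past the limit. The median log2 difference was 3.08 for the set and 0 for all genes.

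HPC gave a similar count against ST-HSC. At least 2-fold higher in HPC than in ST-HSC were 7 of the 10, against 6.47% of all genes. Both counts use the same ST-HSC array. At least 2-fold higher in LT-HSC than in HPC were 5 of the 10 (Igll1, Ebf1, Pou2af1, Irf4 and Blk), against 6.8% of all genes. Of these, Igll1 and Irf4 were little past the limit.

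Against each of LT-HSC and ST-HSC, no gene of the set was at least 2-fold higher or lower in HPC, since HPC lay between the 2 stem cell arrays or close to one of them. The shares of all genes were 2.12% and 2.69%. Granulocytes likewise had no gene of the set at least 2-fold above or below each of the other arrays, against 8.9% and 12.7% of all genes. In ST-HSC 2 of the 10 genes were above the floor, so for the others neither HPC nor granulocytes could be called lower. Singly, granulocytes were at least 2-fold above ST-HSC for 5 of the 10 genes, against 14.4% of all genes. They were at least 2-fold above HPC for 3 (Ebf1, Pax5 and Pou2af1), against 13.3%. LT-HSC was at least 2-fold above granulocytes for 6 of the 10, against 19.9% of all genes, and HPC for 4, against 19.2%.

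**Figure D3:**
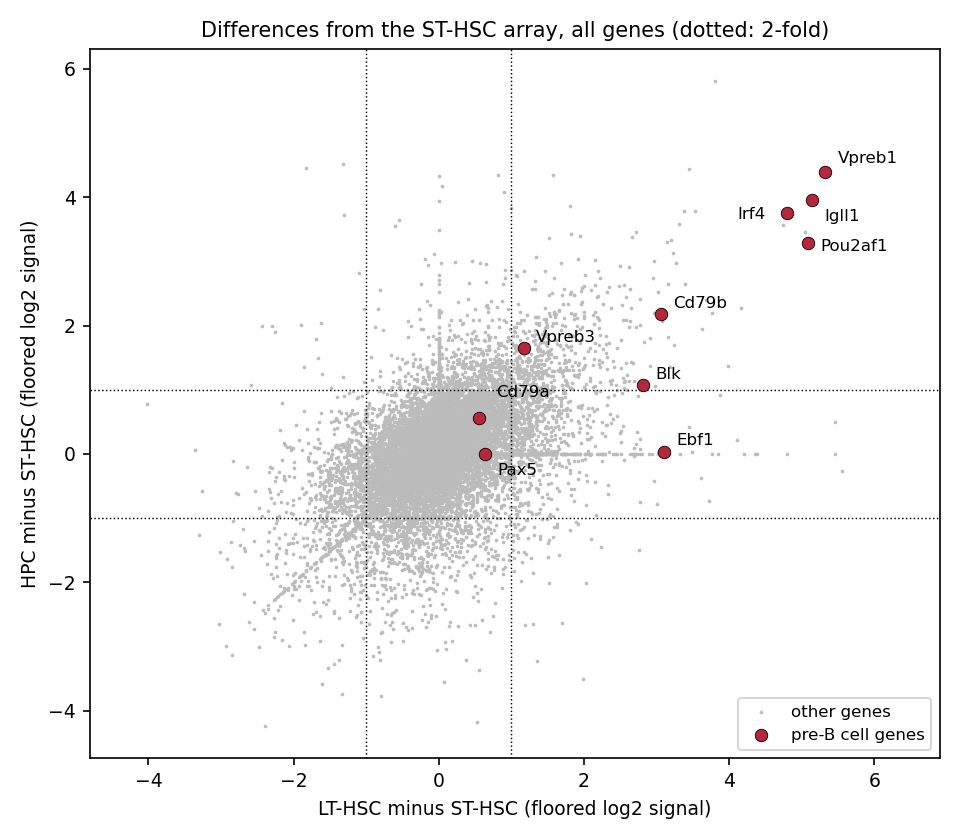
Floored log2 differences from the ST-HSC array for all 18193 genes, LT-HSC on the horizontal and HPC on the vertical axis, with the 10 pre-B cell genes in red and 2-fold limits dotted; both axes share the ST-HSC array, so the slope of the cloud is not a result. Vpreb1, Igll1, Pou2af1 and Irf4 lie at the upper right, Ebf1 is high for LT-HSC alone, and Cd79a and Pax5 lie inside the limits at this floor.

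Other genes of the early B programme were read from lists, to see how far the set stood with its pathway. Of 21 genes of pre-B receptor signalling, 19 were measured, and 5 were at least 2-fold higher in LT-HSC than in ST-HSC and none lower, beside the 7.28% and 5.41% of all genes. The median log2 difference of the 19 was 0.53. Blnk, the adaptor that links the receptor to its effectors, had 14001 in LT-HSC, 4704 in HPC, 1027 in ST-HSC and 901 in granulocytes. It was 13.6-fold higher in LT-HSC than in ST-HSC, in the order of arrays seen for Cd79b save that granulocytes lay lowest. The other 4 were Prkcb, Vav1, Pik3cd and Grb2, at 2.07-fold to 2.56-fold, and 1 probe set of Pik3cd had the opposite sign.

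Of 21 early B transcription factors, 5 were at least 2-fold higher in LT-HSC than in ST-HSC and 1, Sox4, was lower. The median log2 difference of the 21 was 0.23. Lef1, a factor of precursor lymphocytes, had 1546 in LT-HSC, 635 in HPC, 97.1 in ST-HSC and 291 in granulocytes, which is at least 12.9-fold higher in LT-HSC. Bcl11a, needed for B-cell development, was 2.95-fold higher, Tcf4 2.25-fold and Foxo1 2.22-fold. Spib, at 250 in LT-HSC and 95.4 in ST-HSC, was the fifth. Lef1 rested on 1 of its 2 probe sets, the other being at the floor on both arrays, and 1 of 6 probe sets of Tcf4 had the opposite sign. Against all 3 other arrays, granulocytes had 10 of the 21 at least 2-fold lower and 3 higher, beside 12.7% and 8.9% of all genes.

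Of 12 measured lymphoid progenitor genes, 5 were at least 2-fold higher in LT-HSC than in ST-HSC and 2 lower. The shares of all genes were 7.28% and 5.41%. The summed signal of the 12 was 29159 in LT-HSC, 21804 in HPC, 31547 in ST-HSC and 15856 in granulocytes. Dntt, the brightest of the 12 in ST-HSC, had 11455 in LT-HSC, 8862 in HPC, 15858.5 in ST-HSC and 9.7 in granulocytes. All 3 of its probe sets were lower in LT-HSC than in ST-HSC, with log2 differences of -0.47 to -0.02. Rag1, which encodes the recombinase that cuts immunoglobulin gene segments, had 2062 in LT-HSC, 139.9 in HPC, 58.7 in ST-HSC and 181 in granulocytes. Its partner Rag2 had 400.5, 83.6, 7.3 and 57.6 in the same order. Both were highest in LT-HSC, at least 17.2-fold and at least 3.33-fold above ST-HSC. HPC thus had signal for Vpreb1 and the brighter Igll1 probe set with little signal of the recombinase. The second Igll1 probe set was under the floor in HPC, at 22.3. Il7r, the receptor of the cytokine that mouse B precursors need, had 332 in LT-HSC, 469 in HPC, 112 in ST-HSC and 255 in granulocytes. Flt3, a receptor of multipotent progenitors, and Cnr2 were lower in LT-HSC, with log2 differences of -1.07 and -1.82. The other higher genes were Ccr9, on 2 of 5 probe sets, and Ly6d. Ccr9 also stands in the list of plasmacytoid dendritic cells.

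Genes of later stages of the lineage were read in the same way, beside the 7.28% and 5.41% of all genes at least 2-fold higher and lower. Of 11 measured mature B cell genes, 1, Tnfrsf13c, was at least 2-fold higher in LT-HSC than in ST-HSC and none was lower. Of these 11 genes, 8 were above the floor in LT-HSC, 5 in HPC, 4 in ST-HSC and 8 in granulocytes. Ighm, which encodes the heavy chain of IgM, had 7223 in LT-HSC, 9603 in HPC, 7249 in ST-HSC and 7732 in granulocytes. These are signals of its brightest probe set, 1 of 11 and marked _s_at, which was thus bright on all arrays. Of the 11, 8 were lower and 1 higher in LT-HSC than in ST-HSC, with log2 differences of -0.63 to 0.50. The levels of the other Ighm probe sets are not given here. Ms4a1, which encodes CD20, had 220 in granulocytes and was under the floor on the other arrays. Cr2, a complement receptor of mature B cells, reached 127 in LT-HSC and was under the floor elsewhere. Of 8 genes of antigen presentation 1, H2-Aa, was higher and 1, H2-DMb2, lower. Of 7 plasma cell genes 2 were higher, Irf4 of the set itself and Mzb1, a chaperone of B cells and plasmacytoid dendritic cells, with 2424 in LT-HSC, 1699 in HPC, 271 in ST-HSC and 1105 in granulocytes. In LT-HSC, Vpreb1, the brighter Igll1 probe set, Cd79b, Blnk, Rag1 and Ebf1 had signals of 1031 to 14001. These were picked from the set and the lists after their values were seen. Vpreb3, Cd79a and Pax5, of the set, were nearer the floor there, at 176.5 to 269.5. Il7r was highest in HPC, and Dntt and Flt3 were lower in LT-HSC than in ST-HSC.

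**Figure D4:**
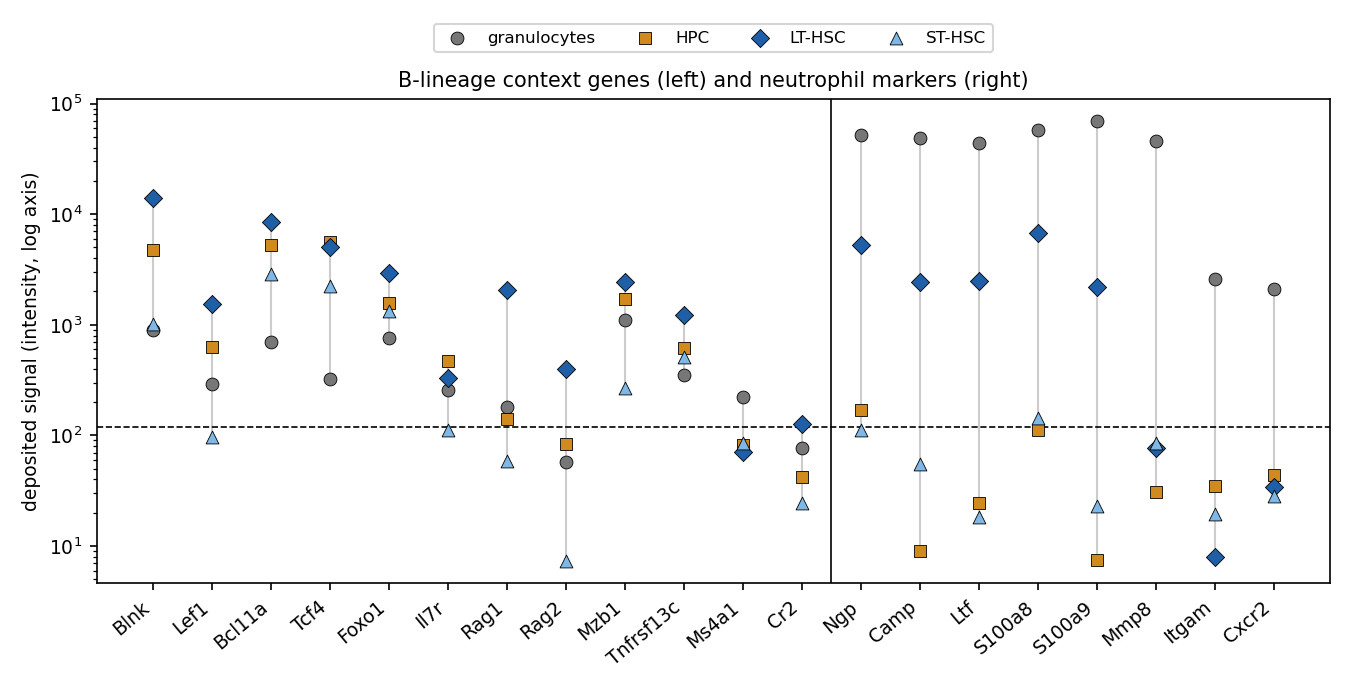
Deposited signal (log axis) of 12 B-lineage genes outside the set (left of the line) and the 8 neutrophil markers (right), 1 point per array; the dashed line is the floor of 120.1. The 12 are a selection from the lists, most of them at least 2-fold higher in LT-HSC than in ST-HSC. Dntt, Flt3 and Sox4, which were lower in LT-HSC than in ST-HSC, are among the list genes not drawn. Blnk, Lef1, Rag1 and Rag2 peak in LT-HSC. In LT-HSC Ngp, Camp, Ltf, S100a8 and S100a9 are above the floor, at 2203 to 6783. In ST-HSC only S100a8 of these is, at 145.

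Markers of other cells moved with the set to different degrees. Of the 8 neutrophil markers, 5 were at least 2-fold higher in LT-HSC than in ST-HSC, with a median log2 difference of 4.27, and their part in the pre-B signals of LT-HSC was not tested. Vpreb1 and the brighter Igll1 probe set were under the floor in granulocytes themselves. Pou2af1 and Irf4 were not, and Blk, Cd79b, Ebf1 and Pax5 were above the floor there at 255 to 703. HPC had Vpreb1 at 2532 with 1 of the 8 neutrophil markers above the floor, Ngp at 169.8.

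Of 8 measured plasmacytoid dendritic cell markers, 3 were at least 2-fold higher in LT-HSC than in ST-HSC and 1 lower. Their summed signal ran from 2630 in granulocytes and 4542 in ST-HSC to 7708 in HPC and 8833 in LT-HSC. Siglech, the marker that defines these cells, had at most 129 on any array. Of 10 measured T and NK cell markers 2, Cd2 and Cd8a, were higher in LT-HSC and none lower. Cd8a was so on 1 of its probe sets, while 3 had the opposite sign. The list had summed signals of 2077 in LT-HSC, 2075 in HPC, 1289 in ST-HSC and 6026 in granulocytes. Cd4, Cd3g and Cd8b1 were under the floor on all arrays, whereas Cd3d had 3890 in granulocytes. The part of these markers in the pre-B signals was not tested.

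Some B-cell genes outside the set were also above the floor in granulocytes, and others were not. Bank1, an adaptor of B-cell receptor signalling, had 138.5 in LT-HSC, 90.8 in HPC, 213 in ST-HSC and 4274 in granulocytes. Fcrl1, a receptor of mature B cells, had 784 in granulocytes, and Fcrla, an intracellular relative of it, had 609, both under the floor on the other arrays. B220 was no exclusion antigen for this sort, and any part of B-lineage cells in these signals was not tested. Bank1, Fcrl1 and Fcrla were chosen after their values were seen. Cr2, Cxcr5, Cd40, Rasgrp3 and Lat2 of the same lists were under the floor in granulocytes, at 9.4 to 77.2. Of the set, 6 genes were above the floor there, and Vpreb1, Vpreb3, Cd79a and the brighter Igll1 probe set were under it.

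Genes with the most similar profiles were found by the Euclidean distance between centred, floored log2 signals over the 4 arrays, among the 3767 genes with a range of at least 4-fold. Such a likeness over 4 arrays is a description only. Each gene stood by its brightest probe set here, and the second sets of Igll1 and Irf4 had other profiles. Vpreb1 and Igll1 were each other's nearest gene, 0.36 log2 units apart, and Ccl5 and Hivep3 followed for both. In ST-HSC and granulocytes the Vpreb1 and Igll1 signals were both set to the floor. Ccl5, a chemokine of T and NK cells, had 3202 in LT-HSC, 1430 in HPC, 114 in ST-HSC and 30.8 in granulocytes. Pou2af1 and Irf4 were also each other's nearest, 0.61 apart, followed by Gpat3 for Pou2af1 and by St6gal1 for both. St6gal1, a sialyltransferase abundant in B cells, had 1480 in LT-HSC, 887 in HPC, 142 in ST-HSC and 1627 in granulocytes.

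Other members had different neighbours. Nearest to Cd79b were Chchd10 (0.13), Cd2ap (0.26) and Eipr1 (0.36). Nearest to Ebf1 were Gzma (0.28), a granule protease of cytotoxic lymphocytes, Meg3 (0.33) and Mpzl1 (0.39), and nearest to Blk were Ak1 (0.38), Pard3b (0.45) and Marchf3 (0.46). Ifi30 followed St6gal1 for Irf4, at 1.16.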

How the data were processed

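The authors deposited 1 table of probe set intensity on a linear scale, with 1 array for each of 4 populations, per the series design and the labels. The sources used here name neither the summary software nor any detection calls. The mean trimmed by 2% at each end was 500.00 on every array, so the values were not rescaled. After removal of 64 controls from 45101 probe sets, 34945 had 1 gene symbol in GEO's platform annotation, 932 several and 9160 none that could be used here.

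Values were floored at the pooled median, 120.1, and log2 transformed. The brightest probe set by mean log2 signal stood for a gene, which gave 18193 genes. A call required at least 2-fold in 1 direction against every reference array. No test exists with 1 array per group. Members and lists were chosen with earlier results of these data known. Of 118 further list genes, 109 were measured. All members were named, with up to 4 genes per list and direction, and further list genes named after their values were seen. Genes of similar profile were the 3 nearest to each member with a range of at least 4-fold. Promoter sequences are from RefSeq (GRCm38.p6). Scaling, floor, pseudocount, probe set choice and threshold were varied. Python 3.11.15, numpy 2.4.6, pandas 2.3.3 and matplotlib 3.10.9 were used.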

Additional observations from a re-analysis of the deposited data

How the results depend on the processing

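The count of genes at least 2-fold higher in LT-HSC than in ST-HSC, 8 of 10, ran from 7 to 10 over 9 alternatives of scaling, floor, pseudocount, probe set choice and threshold, and none was lower under any of them. It was 7 with HPC in place of LT-HSC, an alternative chosen after seeing the data. The counts of 0 for granulocytes and for HPC against every reference array stayed at 0 under all 9. At the floor of 120.1, a gene under it in ST-HSC could not be called lower or have a difference below 0. Of 80 recomputed log2 differences between LT-HSC and ST-HSC, 76 were above 0, 4 were 0 and none was below 0. Of the 80, 18 moved by more than the SD between probe sets, mostly with the floor. For the 6 genes with 1 probe set, the alternatives of probe set choice could not change the value. The 80 are thus not separate checks. Without probe sets marked _x_at or _s_at, Igll1 changed sign in the granulocyte comparison (mean log2 difference -3.03 to 0.78) and in the HPC comparison (1.38 to -0.30), since its other probe set then stood for it. No paired analysis was possible because each group has 1 array. Signals near the floor, such as those of Cd79a and Pax5, limit what can be said of those genes.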
